A study of Mus musculus with 4 samples.

Results

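Fabp7, Igfbp5, Ptx3, Veph1, Lrp4 and Mt3 are 6 of the 43346 genes counted in single cells of the embryonic mouse forebrain, and they were picked by name for high levels in progenitors of the caudal ganglionic eminence (CGE). The values that chose them are their levels in CGE cells with much Nes, so those levels and their ratios to other regions are given as a description, with no test. Each of the 4 libraries held cells of wild-type C57BL/6 embryos at E12.5, with 1 library from the cortex (CTX), 1 from the lateral ganglionic eminence (LGE), 1 from the medial ganglionic eminence (MGE) and 1 from CGE. Tissue was pooled over embryos, so a library is not an animal, and no region had a second library. The labels describe a sort for live cells (DRAQ5+/DAPI-), whereas by the methods cells of this genotype were run without a sort, and the effect of such a sort on the cells captured was not tested. High-Nestin cells, taken as cells of the ventricular zone (VZ), had ln(1 + Nes UMIs per 10000) above 1.5, where a UMI (unique molecular identifier) marks 1 captured transcript.

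The ganglionic eminences are ventral swellings whose progenitors give rise to inhibitory neurons, and the cortical VZ gives rise to excitatory neurons. Radial glia of the VZ divide at the ventricle, keep Notch signalling active through Hes genes, and pass through intermediate stages before their daughters switch on Dcx and leave. The 6 genes have separate roles in such cells. Fabp7 encodes the brain fatty acid binding protein and is a classical radial glia marker. Igfbp5 encodes a secreted protein that binds insulin-like growth factors, and Ptx3 a secreted pentraxin known from innate immunity. Veph1 encodes a protein with a pleckstrin homology domain and was named for expression in the ventricular zone. Lrp4 is a receptor of the LDL receptor family that binds agrin and acts with MuSK at the neuromuscular junction, and Mt3 is the metallothionein typical of brain, a small protein that binds zinc and copper.

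The genes lie on 5 chromosomes, and 2 of them share a locus. On GRCm38 (mm10), Fabp7 spans chr10:57784881-57788450 on the plus strand, Igfbp5 chr1:72857932-72874884 on the minus strand, Lrp4 chr2:91457511-91513779 on the plus strand and Mt3 chr8:94152607-94154146 on the plus strand. Veph1 spans chr3:66053558-66296837 on the minus strand, and Ptx3, at chr3:66219910-66225805 on the plus strand, lies inside 1 of its introns. The promoters of Ptx3 and Veph1 are shown because these neighbours lie on opposite strands, and that of Fabp7 as the promoter of the classical radial glia gene among the members. Each is the RefSeq sequence from 250 to 51 bases before RefSeq's own start on GRCm38.p6, 5′ to 3′ on the strand of the gene. That start lies 42 bases downstream of the gene start given above for Fabp7, 23 bases upstream of it for Ptx3 and at it for Veph1. RefSeq held such a sequence for 5 members, and Lrp4 had none there. The capitals mark matches, on either strand, to TTGGC (core of NFI sites), TGGGAA (core of RBPJ sites), AGGTCA (core of nuclear receptor sites) and TAATTA (homeodomain core), and no marked matches overlap. The windows are chr10:57784673-57784872, chr3:66219637-66219836 and chr3:66296888-66297087, in this order.
Fabp7: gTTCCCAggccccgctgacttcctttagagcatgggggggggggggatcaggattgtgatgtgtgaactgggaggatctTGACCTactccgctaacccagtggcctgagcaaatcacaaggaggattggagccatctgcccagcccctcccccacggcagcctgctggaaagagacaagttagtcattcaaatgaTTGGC
Ptx3: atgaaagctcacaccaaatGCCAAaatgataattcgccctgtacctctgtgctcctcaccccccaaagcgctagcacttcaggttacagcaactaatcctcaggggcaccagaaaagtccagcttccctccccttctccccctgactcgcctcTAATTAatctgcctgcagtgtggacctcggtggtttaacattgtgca
Veph1: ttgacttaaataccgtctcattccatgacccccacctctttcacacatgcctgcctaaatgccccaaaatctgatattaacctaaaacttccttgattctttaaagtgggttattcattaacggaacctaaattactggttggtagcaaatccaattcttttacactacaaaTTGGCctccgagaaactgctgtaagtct
TTGGC was present in 4 of the 5 windows, all but that of Mt3, and in 34.9% of all 32851 windows of the same length. Fabp7 also held TGGGAA, found in 17.9% of all windows, and AGGTCA, found in 11.4%, while Ptx3 held TAATTA, found in 4.19%. The TATA box letters TATAAA (9.14% of all windows), the octamer ATGCAAAT (1.32%) and the metal response cores TGCGCNC (9.23%) and TGCACNC (8.60%) had no match in any of the 5 windows. The windows stop 51 bases before the start, so a TATA box or metal response core nearer the start was not looked for. Their absence here does not show that a promoter lacks them. A match in these letters is a description of the sequence and shows no binding.

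The libraries held 4301 to 6953 barcodes with 31451467 to 49794765 UMIs each. After filters on detected genes, mitochondrial share, Hbb share and doublets, 3196 to 4745 cells were left per library, of which 897, 653, 539 and 179 from CTX, LGE, MGE and CGE were high-Nestin cells. Their median depths were 8482, 8143, 9751 and 9130 UMIs in the same order. Pairs of libraries shared 4 to 15 barcodes, and no pair shared a high-Nestin one. The progenitor markers Hes5, Sox2, Vim and Hes1 were all detected in each library's high-Nestin cells, with sums of 2481 to 3780 UMIs per 1000000 (CPM). The young-neuron markers Dcx, Tubb3 and Mapt also had UMIs, in 626, 534, 468 and 165 high-Nestin cells of CTX, LGE, MGE and CGE. Their sums were 255, 800, 514 and 680 CPM in the same order, so the gate held neuronal UMIs in unlike measure between regions. All 5 dorsal markers had UMIs in CTX, with a sum of 606 CPM. In CGE their sum was 37.7 CPM from 11 cells with Emx1 and Neurod6 at 0, and in LGE and MGE it was at most 4.60 CPM. All 8 myeloid markers had UMIs in 3 CGE cells, with a sum of 187 CPM against 1.29 to 75.2 CPM elsewhere. The mesenchymal sum was 77.9 CPM in CGE, with 4 of 7 markers at 0, and 9.94 to 32.7 CPM elsewhere. The number of members at least 2-fold higher in CGE than in the next eminence was 5 with all these cells, 5 without the 8 cells that held 3 or more genes of a myeloid, mesenchymal or endothelial list, and 5 without the cells with dorsal markers. Barcodes with over 50% Hbb UMIs were taken as red blood cells, which should lack all 6 genes, and their level was taken as that of free RNA. All intervals in brackets are exact 95% intervals of counting error, and with 1 library per region they leave out any spread between embryos or dissections.

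Of the 6 members, 5 followed their label. Fabp7, Igfbp5, Ptx3, Veph1 and Lrp4 had their highest level in CGE high-Nestin cells, at least 2-fold above both other eminences, whereas Mt3 was slightly lower in CGE than in LGE. Over 4153 genes at 50 CPM or more in 1 of the 3 eminences, 45 genes (1.08%) were at least 2-fold higher in CGE than in the next eminence. These counts use the values that chose the members, and nothing is read from the excess.

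In high-Nestin cells of CTX, LGE, MGE and CGE, in this order throughout the next paragraphs, Fabp7 stood at 906, 1513, 1546 and 6483 CPM [6358–6609]. The CGE level was 4.19 times [4.07–4.32] that of MGE, and the ratio of LGE over MGE was 0.979 [0.949–1.01], an interval that includes 1. CTX was the lowest, at 0.586 times [0.567–0.605] the MGE level.

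Igfbp5 stood at 72.8, 26.3, 56.6 and 246 CPM [222–271]. The CGE level exceeded that of MGE 4.34-fold [3.72–5.07], and CTX rather than an eminence came second. A single MGE cell with 57 UMIs held 19.6% of the Igfbp5 UMIs of that library, and without it the MGE level was 45.6 CPM.

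Ptx3 measured 5.19, 85.2, 24.1 and 276 CPM [251–304]. Here LGE was the next eminence, with CGE 3.24-fold [2.84–3.70] above it, and LGE itself stood 3.54-fold [2.89–4.35] above MGE. The distance to cortex was the widest of any member, with CGE 53.2-fold [38.5–75.6] above CTX. The log2 ratio was 5.49 with a pseudocount of 1 CPM and 4.24 with a pseudocount of 10 CPM. The upper bound of free RNA in CTX fell inside the interval of the CTX level (given with the cortical values).

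Veph1, the host of Ptx3, measured 4.28, 15.5, 5.05 and 111 CPM [95.4–129]. It followed the order of Ptx3 among the eminences, with CGE 7.19-fold [5.52–9.44] above LGE and LGE 3.06-fold [1.95–4.95] above MGE. CTX and MGE had overlapping intervals for Veph1.

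The levels of Lrp4 were 28.9, 9.94, 2.14 and 108 CPM [92.5–125]. Its ratio of CGE over the next eminence was 10.9 [7.96–15.04]. With 1 CPM added to both levels, the ratio ranked first among the 4153 genes. That rank uses the values that chose Lrp4, which reached 50 CPM only in CGE, and nothing is read from it. As with Igfbp5, cortical cells came second, 2.91-fold [2.15–4.00] above LGE.

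For Mt3 the levels were 94.0, 626 [605–647], 187 and 581 CPM [544–619]. CGE was 0.928 times [0.862–0.998] LGE, and the ratio, with 1 CPM added to both levels, ranked 2360th among the 4153 genes. Mt3 thus went against the label of a CGE gene and was high in both LGE and CGE, 3.11-fold [2.84–3.41] higher in CGE than in MGE and 6.18-fold [5.60–6.82] higher than in CTX. Its direction depended on a filter: with cells of 4500 or more genes kept, the log2 ratio of CGE over LGE was 0.23.

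Against cortex, all 6 members were at least 2-fold higher in CGE, from 3.37-fold [2.96–3.85] for Igfbp5 to the 53.2-fold of Ptx3. Of 4148 genes at 50 CPM or more in CTX or CGE high-Nestin cells, 205 (4.94%) passed that limit. Cortical progenitors thus held 2 groups among the members. Fabp7, Igfbp5, Lrp4 and Mt3 were plainly present there. Ptx3 and Veph1 were much lower, at 40 and 33 UMIs in 897 cells. Red blood cell barcodes of that library had 1 UMI of Ptx3, at 0.760 CPM with an upper bound of 4.24 CPM. They had 0 UMIs of Veph1, with an upper bound of 2.81 CPM. The Ptx3 bound fell inside the interval of the high-Nestin cells [3.71–7.07], and the Veph1 bound lay just below it [2.95–6.01].

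**Figure D1:**
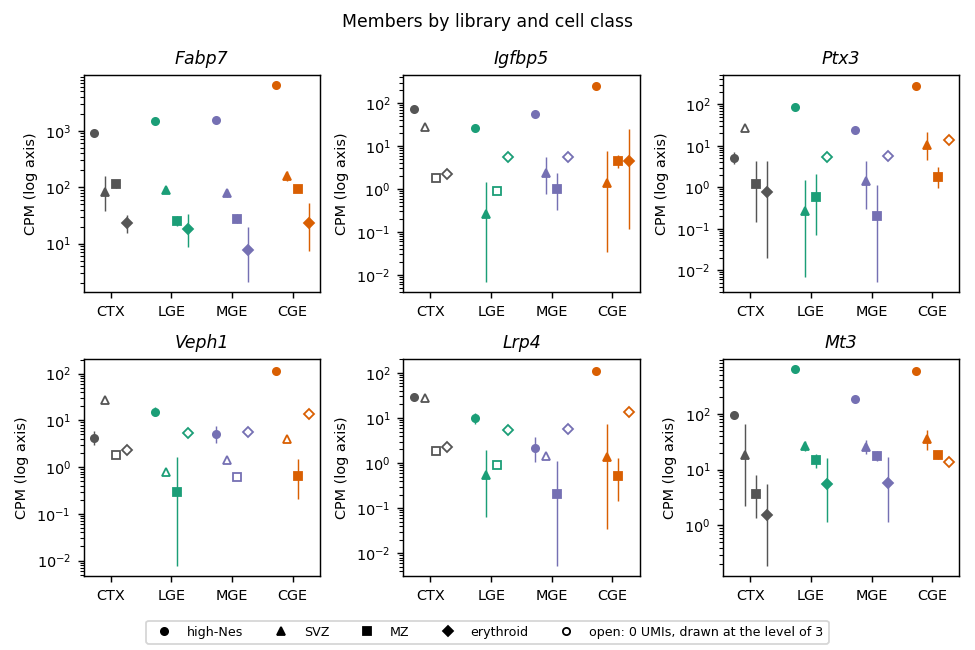
Level of each member (CPM, log axis) in 4 libraries, for high-Nestin cells (circles), SVZ cells (triangles), MZ cells (squares) and red blood cell barcodes (diamonds), with exact 95% Poisson intervals; open symbols had 0 UMIs and stand at the level of 3 UMIs. For 5 genes the CGE circle is the highest, and for Mt3 the LGE circle at 626 CPM is.

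The levels were low in cells gated on Dcx, which marks young neurons. On the scale of ln(1 + UMIs per 10000), cells counted as dividing subventricular zone (SVZ) cells were above 1.5 for Dcx, above 0.5 for Ccnd2 and Mki67 and below 0.5 for Rbfox3 and Mapt. Those counted as mantle zone (MZ) cells were also above 1.5 for Dcx but below 0.5 for the cyclins Ccnd1 and Ccnd2, for Mki67, and for both Hes5 and Nes. Fabp7 was at 158 CPM [131–190] in CGE SVZ cells and 91.1 CPM [84.5–98.1] in CGE MZ cells. In LGE it was at 90.5 and 25.2 CPM, and in MGE at 79.7 and 27.8 CPM, in the same order of classes. CTX MZ cells had 112 CPM [96.2–129] of Fabp7. Red blood cell barcodes had 7.56 to 22.8 CPM of it, and the interval of LGE MZ cells, 25.2 CPM [20.1–31.2], overlapped that of the LGE red blood cell barcodes, 18.3 CPM [8.75–33.6].

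Ptx3, Veph1 and Lrp4 were nearly absent from the SVZ and MZ cells. Veph1 had 0 UMIs in SVZ cells of all 4 libraries and at most 5 UMIs in MZ cells of any. Lrp4 had at most 2 UMIs in SVZ and 4 UMIs in MZ cells of a library. Ptx3 reached 10.7 CPM [4.64–21.2] in CGE SVZ cells, from 8 UMIs, and 1.81 CPM in CGE MZ cells. Igfbp5 was at 4.39 CPM [3.04–6.14] in CGE MZ cells and at most 1.01 CPM in MZ cells of the other libraries. Mt3 kept a low level, 25.4 to 34.9 CPM in SVZ cells of the eminences and 14.5 to 18.3 CPM in their MZ cells. Cells outside all 3 gates also held the members, since the high-Nestin cells had 440 of the 1002 Ptx3 UMIs in all kept CGE cells, 177 of the 398 of Veph1 and 172 of the 351 of Lrp4. Among kept cells with 3 or more genes of a myeloid, mesenchymal or endothelial list, Lrp4 was at 51.0 CPM [22.0–100.4] in CGE, from 8 UMIs in 17 cells. Ptx3 was at 17.5 CPM [8.01–33.3] in such cells of CTX, above its 5.19 CPM in CTX high-Nestin cells, and had 0 UMIs in those of the eminences.

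Whether the members mark progenitors outside CGE was tested with edgeR (quasi-likelihood test) on summed counts of high-Nestin and high-Dcx cells from CTX, LGE and MGE, with the library as a block. CGE was left out because its levels chose the members. All 6 were higher in high-Nestin cells, in 3 of 3 libraries each, and over all 12967 genes 22.0% were called higher and 22.6% lower. The p-values rest on 3 libraries of different regions. With the library as a block, they measure how much the difference between the 2 cell classes varied among the libraries. Igfbp5 stood at 73.9 CPM in high-Nestin and 1.97 CPM in high-Dcx cells of CTX, at 28.9 and 0.419 CPM in LGE and at 57.1 and 1.51 CPM in MGE. Its log2 difference was 5.34 (SE 0.23, adjusted p = 0.00186). Lrp4 differed by 5.35 on the log2 scale (SE 0.30, adjusted p = 0.00225) and Veph1 by 5.41 (SE 0.39, adjusted p = 0.00272). In single libraries the difference was 37.6-fold to 69.0-fold for Igfbp5, 32.2-fold to 51.2-fold for Lrp4 and 28.9-fold to 76.1-fold for Veph1.

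Fabp7 and Ptx3 had a wider standard error. Fabp7 was 7.79-fold higher in high-Nestin cells of CTX, where young neurons still had 118 CPM, 29.5-fold in LGE and 28.2-fold in MGE, for a log2 difference of 4.15 (SE 0.49, adjusted p = 0.00580). Ptx3 was 5.83-fold higher in CTX, 112-fold in LGE and 22.5-fold in MGE, for a log2 difference of 4.94 (SE 0.83, adjusted p = 0.0123). Its call was lost without LGE (log2 difference 3.60, adjusted p = 0.0517) and without MGE (5.31, adjusted p = 0.0743). Mt3 had a log2 difference of 3.85 (SE 0.39, adjusted p = 0.00444) and was 9.55-fold to 30.7-fold higher.

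The level of most members went up with the amount of Nes itself, which is also what the cells were chosen by. In CGE, Fabp7 climbed from 283 CPM in cells with Nes below 0.5 to 910 CPM at 0.5 to 1.0, 3427 CPM at 1.0 to 1.5, 5650 CPM at 1.5 to 2.0 and 7809 CPM above 2.0. The same bins gave 118, 263, 678, 1297 and 2160 CPM in LGE. In MGE they gave 106, 229, 507, 1262 and 1939 CPM, and in CTX 226, 462, 689, 847 and 1054 CPM. CGE thus had the highest Fabp7 level in every bin. Relative to LGE its lead was widest in the bin at 1.0 to 1.5 and narrower again in the bins above. Lrp4 in CGE went from 2.90 CPM in the lowest bin to 102 CPM at 1.5 to 2.0 and 117 CPM above 2.0, whereas in CTX it was at 8.06, 29.2 and 28.3 CPM in these bins. In the lowest bin Lrp4 was therefore higher in CTX than in CGE. Ptx3 in CTX stayed between 2.50 and 5.48 CPM over all bins. Dcx fell over the same CGE bins from 762 to 22.8 CPM, so the mix of cell stages changed along with Nes.

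**Figure D2:**
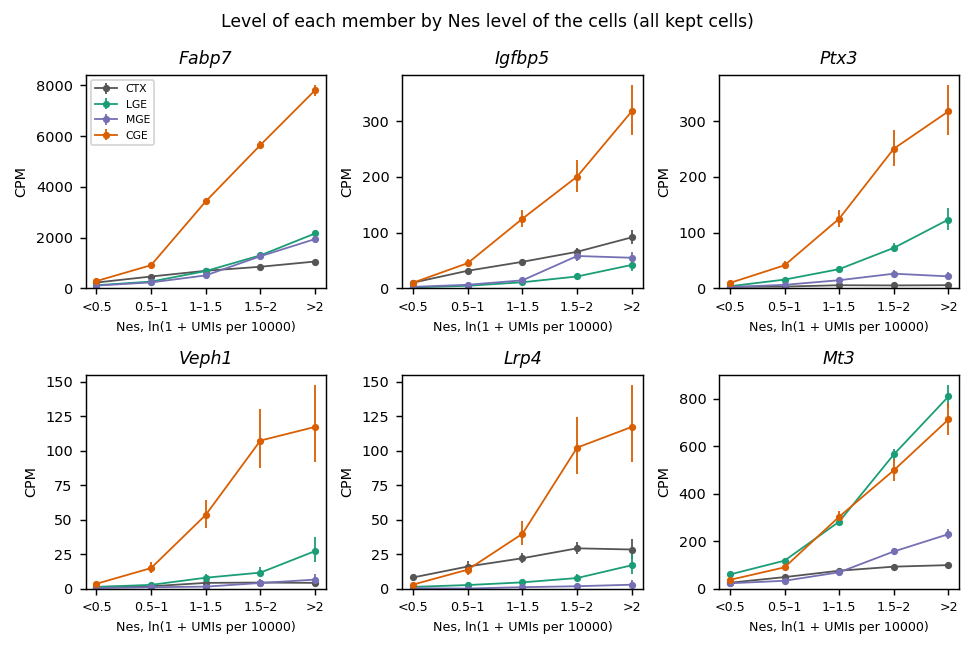
Level of each member (CPM) in all kept cells, binned by Nes (ln(1 + UMIs per 10000)), for the 4 libraries, with exact 95% Poisson intervals. The CGE line of Fabp7 reaches 7809 CPM in the top bin, and for Mt3 the LGE line, at 809 CPM, lies above that of CGE, at 712 CPM.

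Cell by cell, Fabp7 in CGE was high in most high-Nestin cells, and in LGE and MGE in few. The median cell had 43.5 Fabp7 UMIs per 10000 in CGE, 7.06 in CTX, 5.15 in MGE and 3.68 in LGE. The tenth and ninetieth percentiles were 3.21 and 152 in CGE, 1.49 and 18.1 in CTX, 0 and 42.8 in MGE and 0 and 42.0 in LGE. Cortical cells were the most even, and the 10% of them with most Fabp7 held 29.2% of its UMIs, against 35.4% in CGE, 52.8% in MGE and 58.0% in LGE. The CGE median was exceeded by 63 of 653 LGE cells (9.65%), by 54 of 539 MGE cells (10.0%) and by 1 of 897 CTX cells. The highest single cell was in MGE, with 342 UMIs. LGE and MGE thus held a minority of cells at the CGE level, and CTX almost none.

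For the sparser genes the share of cells with a UMI was compared after each cell had been thinned to 3000 UMIs. Shallower cells, 29 in CTX, 23 in LGE and 5 each in MGE and CGE, were left out. Ptx3 was detected in 44.3% of CGE cells, 17.1% in LGE, 4.12% in MGE and 1.27% in CTX. Veph1 was found in 21.3%, 4.29%, 1.69% and 1.27% in that order, and Lrp4 in 24.7%, 2.86%, 0.749% and 7.60%. Igfbp5 was detected in 35.6% of CGE, 7.14% of LGE, 9.36% of MGE and 19.2% of CTX cells. In shares, as in levels, CGE was highest for these 4 genes, and CTX ranked second for Igfbp5 and Lrp4. Mt3 was again no higher in CGE, at 54.6% [46.9–62.2], than in LGE, at 56.0% [52.0–60.0]. Without thinning, the CGE shares were 67.6% for Ptx3, 45.3% for Veph1, 46.9% for Lrp4, 58.7% for Igfbp5 and 68.2% for Mt3. Red blood cell barcodes thinned alike, with median depths of 10659 to 14167 UMIs before thinning, gave the background, and 0 of 124 in CTX had a UMI of Ptx3, Veph1, Lrp4 or Igfbp5, which by the level of 3 counts allows a share of up to 2.42%. Fabp7, in 91.4% of CGE, 83.5% of CTX, 70.4% of MGE and 64.0% of LGE cells, also had UMIs in such barcodes, 10 of 124 from CTX, 5 of 52 from LGE, 2 of 46 from MGE and 2 of 16 from CGE. The shares of Ptx3 and Veph1 in CTX lie under the limit of 2.42% and cannot be told apart from background by these barcodes, while high-Dcx cells of CTX had shares of 0.255% and 0.128%.

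**Figure D3:**
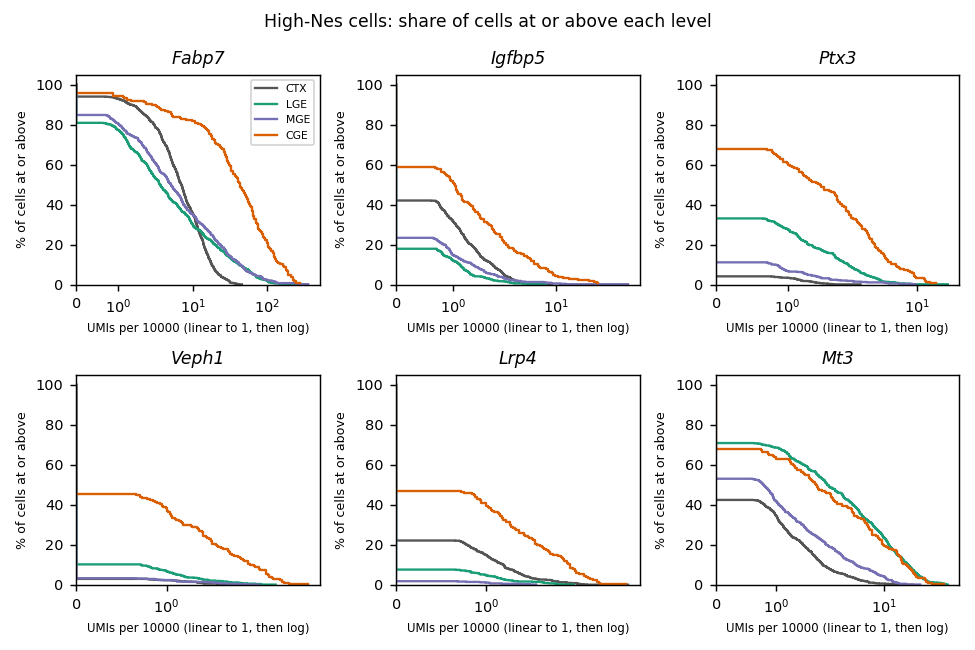
Share of high-Nestin cells (percent) at or above each level of a member (UMIs per 10000, linear to 1 and logarithmic above) in the 4 libraries. At the CGE median of 43.5 UMIs per 10000, the Fabp7 curves of LGE and MGE lie near 10% and that of CTX near 0.

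Co-detection asked whether the members fall in the same cells. In CGE the median cell, at 3000 UMIs, held 3 of the 6 genes, and 60 of 174 cells (34.5% [27.5–42.1]) held 4 or more. That share was 4.92% [3.37–6.91] in LGE, 1.31% [0.529–2.68] in MGE and 0.691% [0.254–1.50] in CTX, and all 6 genes were found together in 2 CGE cells and in none elsewhere. Since each gene was also more frequent in CGE, these shares alone do not speak of linkage between the genes. The counts of pairs below have no share over pairs of other genes beside them. Nothing particular to the members is read from these counts.

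Within CGE, every cell with Igfbp5 (62 cells), Ptx3 (77), Veph1 (37) or Lrp4 (43) also held Fabp7, and the 15 cells without Fabp7 held none of these 4 genes. All 15 pairs were found together in more cells than the product of their shares gives, by factors of 1.07 to 1.39. Fabp7 was in 159 of 174 cells, so its factor of 1.09 with Igfbp5, Ptx3, Veph1 and Lrp4 was the largest possible. The excess of pairs without Fabp7 was small, at factors of at most 1.39. For 4 of the 15 pairs the share of cells with 1 gene had separate intervals depending on whether the partner was present. This number depended on depth and on the Nes limit. It was 10 at 5000 UMIs and 15 without thinning, and 0 at 3000 UMIs with a Nes limit of 2.0, where fewer cells were left. Of the 10 pairs without Fabp7, Veph1 with Mt3 was the one with separate intervals at 3000 UMIs, with Mt3 in 75.7% [58.8–88.2] of cells with Veph1 and in 48.9% [40.3–57.6] of those without. At 5000 UMIs the intervals of that pair overlapped, and 5 other pairs without Fabp7 had separate ones, which were Igfbp5 with Ptx3, Ptx3 with Veph1, and Mt3 with each of Igfbp5, Ptx3 and Lrp4. Ptx3 was then found in 73.7% [62.3–83.1] of cells with Igfbp5 and in 39.5% [29.2–50.7] of those without. For the neighbours, Veph1 was detected in 28.6% of cells with Ptx3 and in 15.5% of cells without at 3000 UMIs, with overlapping intervals, and in 48.9% [38.2–59.7] and 18.1% [9.98–28.9] at 5000 UMIs, with separate ones.

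In MGE, where few cells held a member, 12 of 15 pairs exceeded the product of shares and 4 had separate intervals. Ptx3 was detected in 14.0% [5.82–26.7] of 50 cells with Igfbp5 and in 3.10% [1.74–5.06] of 484 without. Veph1 was found in 3 of 22 cells with Ptx3, where the product of shares gives 0.371 cells. Mt3 was found in 63.6% [40.7–82.8] of cells with Ptx3 and in 30.7% [26.7–34.9] of those without. The counts behind these MGE values are small, and they depended on depth. At 3000 UMIs no MGE cell held Lrp4 together with Ptx3 or Veph1, where the products give 0.165 and 0.0674 cells. At 5000 UMIs 2 cells held Ptx3 with Lrp4 and 1 held Veph1 with Lrp4, where the products give 0.488 and 0.119 cells, and all 15 pairs exceeded the product.

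In LGE, with 630 cells, 15 of 15 pairs exceeded the product of shares and 9 had separate intervals. CTX had 868 cells, but there 10 of 15 pairs exceeded the product and 1, Veph1 with Mt3, had separate intervals. Mt3 was detected in 89.8% [82.5–94.8] of 108 LGE cells with Ptx3 and in 49.0% [44.7–53.4] of 522 without. Veph1 was present in 12.04% [6.57–19.7] of cells with Ptx3 and in 2.68% [1.47–4.46] of cells without. The LGE cells that held Ptx3 were thus richer in Mt3 and Veph1, and also in Fabp7, found in 89 of 108 of them, where the product of shares gives 69.1. At 5000 UMIs 8 LGE and 5 MGE pairs had separate intervals, and Ptx3 with Veph1 was among them in neither library. At 3000 UMIs and a Nes limit of 2.0, 4 LGE pairs and 1 MGE pair had separate intervals.

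**Figure D4:**
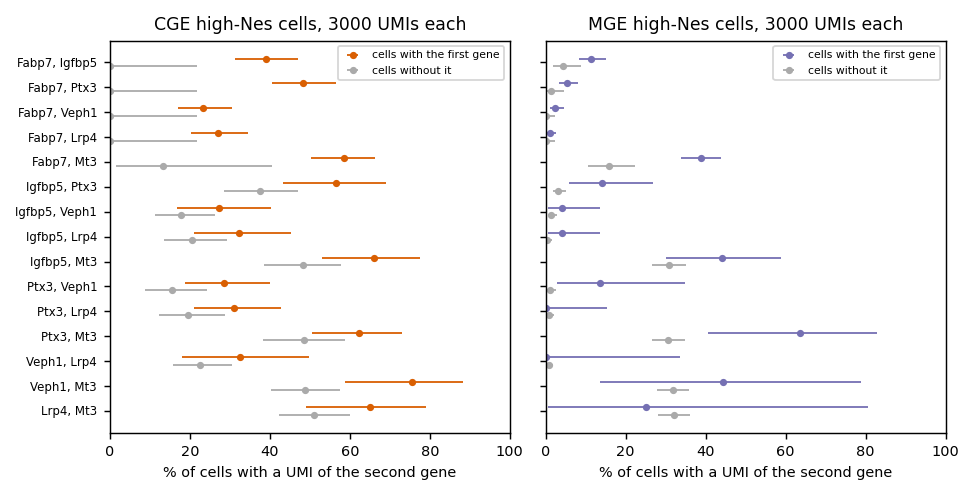
Percent of high-Nestin cells (3000 UMIs each) with a UMI of the second gene of a pair, in cells with the first gene (coloured) and without it (grey), for CGE (left) and MGE (right), with exact 95% Clopper-Pearson intervals. In CGE the grey points of the first 4 pairs lie at 0 of 15 cells, and most other intervals overlap.

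The regional factor Nr2f2 (COUP-TFII), a known marker of the caudal eminence, split the MGE cells. Of 539 MGE high-Nestin cells, 118 had an Nr2f2 UMI, with a median depth of 9918 UMIs against 9538 in the other 421. In cells with Nr2f2, Fabp7 was at 2923 against 1155 CPM, a ratio of 2.53 [2.42–2.65]. Ptx3 was at 65.0 against 12.48 CPM, a ratio of 5.21 [3.59–7.61], and Veph1 at 16.7 against 1.75 CPM, a ratio of 9.55 [3.84–26.9]. Igfbp5 was 4.12-fold [3.25–5.23] higher, or 2.65-fold [2.03–3.46] without the cell of 57 UMIs, which had Nr2f2. Lrp4 was 6.16-fold [1.57–28.7] higher, or 4.44-fold [0.956–22.4] without its highest cell. The 5 members that led in CGE were thus higher in those MGE cells that had Nr2f2, while Mt3 moved little, by 1.21-fold [1.04–1.40]. Most of these cells kept the MGE marker Nkx2-1, since 97 of the 118 had UMIs of both factors, and those 97 had 3216 CPM of Fabp7 and 63.1 CPM of Ptx3. The 21 cells with Nr2f2 only had 74.5 CPM of Ptx3 but 1442 CPM of Fabp7. That Fabp7 level was below the 2211 CPM of the 31 cells with neither factor and above the 1091 CPM of the 390 cells with Nkx2-1 only.

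In CGE, where 22 of 179 cells lacked an Nr2f2 UMI, the intervals were wider and the same 5 members lay above 1. Veph1 was 4.93-fold [1.89–18.3] higher with Nr2f2, Lrp4 4.78-fold [1.83–17.8], Igfbp5 3.60-fold [2.04–7.02], Ptx3 3.02-fold [1.84–5.33], Fabp7 1.50-fold [1.39–1.62] and Mt3 1.12-fold [0.898–1.42]. The cells without Nr2f2 were shallower, with a median of 7040 against 9240 UMIs, and the part of depth in this split was not tested. The 20 CGE cells with an Nkx2-1 UMI had less of every member. The ratio to cells without it was 0.812 [0.758–0.868] for Fabp7, 0.383 [0.163–0.772] for Veph1 and 0.281 [0.190–0.401] for Mt3. Fabp7 was at 5373 CPM in these 20 cells. In the 15 of them that also had Nr2f2 it was at 5755 CPM, above the 3216 CPM of MGE cells with both factors. The factors themselves were measured at 400.2 CPM (CGE) and 47.4 CPM (MGE) for Nr2f2, and at 32.0 CPM (CGE) and 557 CPM (MGE) for Nkx2-1. Cells are not replicates, so these are splits within single libraries.

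**Figure D5:**
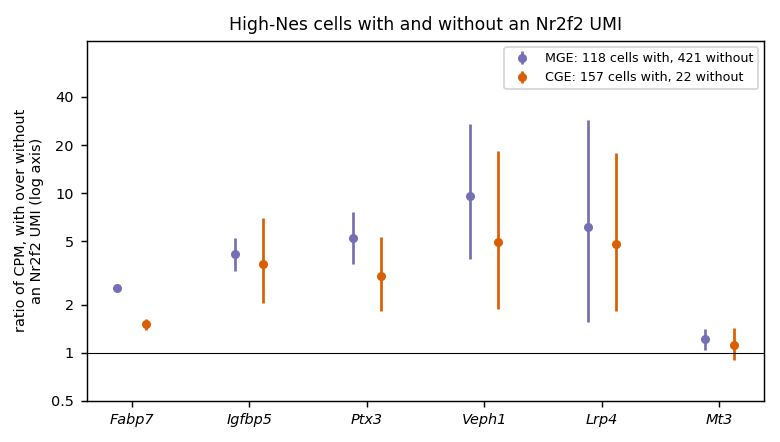
Ratio of CPM (log axis) of each member in high-Nestin cells with over those without an Nr2f2 UMI, for MGE (118 and 421 cells) and CGE (157 and 22 cells), with exact 95% intervals. Fabp7, Igfbp5, Ptx3, Veph1 and Lrp4 lie above 1 in both libraries, and the CGE interval of Mt3 spans 1.

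Hes5, a marker of progenitor stage, divided the cells in another way. High-Nestin cells with a UMI of Hes5, which is a Notch target, had more Fabp7 in all 3 eminences, by 2.42-fold [2.23–2.62] in CGE, 2.74-fold [2.49–3.03] in MGE and 4.89-fold [4.47–5.35] in LGE. Mt3 followed, at 2.55-fold [1.95–3.41], 2.56-fold [1.95–3.42] and 3.56-fold [3.15–4.02] in that order, and Igfbp5 in CGE was 6.99-fold [3.64–15.4] higher. The CGE cells with Hes5 were deeper, with a median of 9424 against 6384 UMIs, and the part of depth was not tested.

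Ptx3 and Veph1 were compared as neighbours. No Ptx3 exon overlapped a Veph1 exon, and the nearest Veph1 exons lay 4333 and 18193 bases away in the annotation. By the methods the counts were made with default settings of Cell Ranger, under which reads are assigned by strand, and the assignment of reads between these genes was not tested here. There were 2.49 Ptx3 UMIs per Veph1 UMI [2.08–2.98] in CGE high-Nestin cells, 5.51 [4.36–7.04] in LGE, 4.77 [3.11–7.59] in MGE and 1.21 [0.745–1.98] in CTX. Other genes within 500 kb of Ptx3 did not follow the pair. Ccnl1, a cyclin with a role in splicing, was at 91.6 to 100.6 CPM in all 4 libraries, and Lekr1 at 6.44 to 8.36 CPM, while the remaining 15 were at 3.50 CPM or less.

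Among family relatives of the members at 50 CPM or more in an eminence, Lrp8 alone was at least 2-fold higher in CGE than in the next eminence. Below that level, Igfbp7 was 2.13-fold [1.23–3.61] higher in CGE, from 25 UMIs. Nptx2 was 2.77-fold [1.23–6.15] higher, from 13 UMIs, and Dkk3, from the LDL receptor list, 3.88-fold [1.85–8.27], from 18 UMIs. Mt2 went the other way, at 0.256 times [0.130–0.460] the LGE level. In the fatty acid binding group, Fabp5 was at 664 to 856 CPM in all 4 libraries and Fabp3 at 1.26 CPM or less. Of the 7 genes of the insulin-like growth factor group tested between high-Nestin and high-Dcx cells, 1 was higher, which was Igfbp5. Another 3 were lower, among them Igfbpl1 with a log2 difference of -3.66 (edgeR, adjusted p = 0.00225). Over all genes tested, 22.0% were called higher and 22.6% lower. Igfbp2 was at 136 to 258 CPM, and CGE was 1.05 times [0.915–1.202] LGE. The ligands Igf1 and Igf2 were at 2.51 CPM or less, and the receptor Igf1r at 22.1 to 27.01 CPM.

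The other metallothioneins did not share the LGE and CGE level of Mt3. Mt1 was highest in CTX, at 128 CPM against 42.2 to 60.3 CPM in the eminences, and Mt2 was lowest in CGE, at 7.54 CPM [3.9–13.2] against 22.7 to 31.4 CPM. All 3 metallothioneins were higher in high-Nestin than in high-Dcx cells, beside 22.0% of all genes. The metal-sensing factor Mtf1 and the zinc transporter Slc30a1 were not called, with log2 differences of 0.03 (edgeR, adjusted p = 0.854) and 0.76 (adjusted p = 0.0859).

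Of the 4 genes of the LDL receptor family and its partners at 50 CPM or more, Lrp4 and Lrp8 were at least 2-fold higher in CGE than in the next eminence. Lrp8, a reelin receptor, was at 112 CPM in CGE and 38.0 to 55.2 CPM elsewhere, a ratio of 2.04 [1.68–2.46] over MGE. Agrn, which encodes agrin, stood at 39.2 to 79.8 CPM, with the highest level in CGE, and Musk had 0 UMIs in every library. Of the 14 genes tested, 3 were higher in high-Nestin cells and 6 lower, beside 22.0% and 22.6% of all genes. The median log2 difference of the 14 was -0.19, beside -0.02 over all genes. Lrp4, at 5.35, was apart from Lrp8, whose log2 difference was -1.12 (edgeR, adjusted p = 0.0466).

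Of the 4 pentraxin genes, Ptx3 was higher in high-Nestin cells and the neuronal pentraxin Nptx1 lower, with a log2 difference of -3.80 (edgeR, adjusted p = 0.0134). Nptx2 and Nptxr were not called, with log2 differences of -0.03 and -0.85. Calls over all genes were 22.0% higher and 22.6% lower.

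Radial glia genes as a list were higher in high-Nestin cells, 13 of 15 with none lower, beside 22.0% higher and 22.6% lower over all genes. Their median log2 difference was 3.47. Between eminences the list was near level, with a median ratio of 1.10 for CGE over the next eminence. Ptprz1, with 1115 CPM in CGE against 413 to 535 CPM in the other eminences, and Mfge8, with 351 CPM against 34.6 to 158 CPM, were the 2 genes of the 15 past 2-fold, beside 1.08% of all genes. Sox2 had a ratio of CGE over MGE of 0.978 [0.920–1.04], and Hes5 was lower in CGE than in MGE, with a ratio of 0.887 [0.837–0.939]. Of the 8 regional markers, 2 were higher in high-Nestin than in high-Dcx cells, 1 was lower and 5 were not called. The same shares of all genes, 22.0% higher and 22.6% lower, stand beside these counts.

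The genes whose level over 12 sums (high-Nestin, SVZ and MZ cells of the 4 libraries) was most like that of Fabp7, Ptx3, Veph1, Lrp4 or Mt3 were ranked by Pearson's r of log2(CPM + 1) over 5585 genes. Lrp4 was most like Veph1 (r = 0.916), Ptx3 most like Vit (r = 0.933), and Mt3 and Veph1 most like Arhgap5 (r = 0.963 and 0.940). Fabp7 came closest to Cct6a (r = 0.971), which was at 190 to 213 CPM in all libraries. The sums share libraries and differ mostly by class, so these r values rest largely on the step from VZ to MZ.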

How the data were processed

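Single cells of 4 regions of E12.5 mouse forebrain were captured in droplets, and the authors deposited UMI counts per gene and barcode (whole numbers, not normalised), aligned to GRCm38/mm10 and counted by Cell Ranger, of which the file headers give version 3.0.2 and the submitters' processing notes 3.0.0. Per the study's methods Cell Ranger was run with default parameters, and the annotation release was not given in the sources used here. Library totals were 31451467 to 49794765 UMIs, which sets the precision. Cells with 1500 to 4500 genes, under 5% mitochondrial and under 1% Hbb UMIs were kept, and 52 to 150 doublets per library were removed by similarity to simulated doublets, at 0.8% per 1000 barcodes. Levels are summed UMIs per 1000000 (CPM) with exact Poisson intervals and shares have Clopper-Pearson intervals after thinning cells to 3000 UMIs. High-Nestin and high-Dcx sums of CTX, LGE and MGE were compared with edgeR 4.0.16 (quasi-likelihood test, R 4.3.3) with the library as a block and TMM normalisation, without cells past both limits, and p-values were adjusted over all genes (threshold 0.05). DESeq2 1.42.0 was an alternative. Both were tried on simulated data. Gene positions were matched by identifier to GENCODE M21 (42462 of 43346 features), and promoters came from RefSeq on GRCm38.p6. The members and gene lists were chosen with earlier results of these data known. Genes named are the members, their listed relatives, regional and stage markers, and the genes most like each member. Results for some of these genes are not reported here.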

Additional observations from a re-analysis of the deposited data

Results flagged for a closer look

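Barcodes of red blood cells, in which Hbb genes made up over 50% of the UMIs and which served only as background, held Fabp7 UMIs above the level of 3 UMIs in all 4 libraries. Fabp7 stood there at 22.8 CPM in CTX (30 UMIs), 18.3 CPM in LGE (10 UMIs), 7.56 CPM in MGE (4 UMIs) and 22.7 CPM in CGE (5 UMIs). The source of these UMIs was not tested.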

How the results depend on the processing

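With 1 library per region, no difference between regions has a replicate, and the intervals cover counting error only. No paired analysis was possible because each region has 1 library, so replicate numbers pair no samples between regions. The comparison of cell classes within libraries took the library as its block. The number of members at least 2-fold higher in CGE than in the next eminence was 5 under all 11 alternatives (other Nes limits, thinning, no upper gene limit, doublets kept, cells of other types, with dorsal markers or with Dcx left out, equal weight per cell, a larger pseudocount, and, chosen after seeing the data, the highest cell left out). The pseudocount enters the log2 ratios but not this number, so that alternative could not change it. Of 132 log2 ratios under these alternatives, 100 stayed within the interval of the main value. Another 31 left it, to larger or smaller values, without a change of sign, and 1 turned. That was Mt3, CGE over LGE, at -0.11 in the report and 0.23 without the upper gene limit, and its cause was not tested. The pairs of members found together in CGE more often than the product of shares numbered 15 of 15, and 8 at a Nes limit of 2.0, where all 69 thinned cells held Fabp7, so that its 5 pairs could not exceed the product. Mt3 with Lrp4 and Mt3 with Ptx3 also fell below the product there, with factors of 0.947 and 0.982. Leaving out 1 library in the comparison with high-Dcx cells gave 795 to 3000 genes higher and 1049 to 2980 lower, beside 2848 and 2927 with all 3. The counts were 1091 and 1117 without LGE, 795 and 1049 without MGE, and 3000 and 2980 without CTX. Members called were 6, or 5 without LGE or MGE, where Ptx3 was lost. All 6 were called with DESeq2, library totals, no filter, CGE added, no block, thinning and limits of 2.0. Depth limits Lrp4 and Veph1 in MGE, with 11 and 26 UMIs in high-Nestin cells.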
